A study of Mus musculus with 24 samples.

Results

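Forebrain and midbrain patterning transcription factors were followed in neural progenitor cells (NPC) of 6 Htt genotypes. They are the proteins that give the anterior neural tube its regions. The set was named as 9 mouse genes, and members were the rows with these gene symbols in both expression tables. It held 8 of the 16024 genes of the NPC table and 8 of the 17501 genes of the table for mouse embryonic stem cells (mESC). They were Emx2, Pax6, Lhx2, Dlx1, Dlx2, Otx2, En1 and En2. The remaining one, Nkx2-1, was not analysed here.

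Total RNA was sequenced from 24 libraries, 12 per cell type, with 2 biological samples for each genotype. The genotypes were wild type (WT), Htt knockout (KO), and lines with 1 Htt allele replaced by a knock-in whose CAG tract had 20, 50, 92 or 111 units (the lines Q20, Q50, Q92 and Q111). Huntingtin, the product of Htt, is the protein whose expanded CAG tract causes Huntington's disease. The knock-in lines were heterozygous stem cell lines kept with LIF on feeder cells. NPC were made from such cells in N2B27 medium and then expanded on laminin with FGF and EGF. Each genotype is represented by 2 libraries, and neither the number of clones per genotype nor the origin of the WT and KO lines is given in the sources used here. A difference between genotypes therefore cannot be told apart from a difference between lines or differentiations, and p-values measure the spread between both libraries of a genotype, which may be technical.

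In the embryo, the front of the neural tube is divided by transcription factors expressed in overlapping domains. Otx2 marks forebrain and midbrain up to the boundary with the hindbrain, and it is also expressed in the early epiblast and in stem cells. En1 and En2 mark the domain around that boundary. Emx2, Pax6 and Lhx2 act in the dorsal telencephalon, the future cortex, and Pax6 and Lhx2 also in the eye field and other parts of the neural tube. Dlx1, Dlx2 and Nkx2-1 act in the ventral telencephalon, which makes the striatum and many interneurons.

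The depth was 48525333 to 118038952 reads per NPC library and 58546211 to 81502284 per mESC library. Values are CPM, read counts relative to library size as the authors scaled them. A count of 0 in an NPC library allows up to 0.0265 to 0.0580 CPM, taken as 3 reads, and this limit covers counting error only. Htt was at 100 and 94.9 CPM in the 2 KO NPC libraries and at 137 to 184 CPM in the other 10. In mESC, the libraries labelled KO were at 139 and 68.5 CPM and WT at 124 and 113 CPM, so the first of them did not show less Htt than WT. Which part of Htt the KO allele lacks is not given in the sources used here, so a value over the whole gene may not report the deletion. Of the neural progenitor markers, Nes (353 to 1273 CPM), Fabp7 (1194 to 3921 CPM), Vim (907 to 2862 CPM) and Slc1a3 (778 to 2741 CPM) were high in all 12 NPC libraries, and 14 of the 16 listed had a row. Others on the list were not: Sox1 was at 0.565 and 1.49 CPM in WT and at 0 in replicate 2 of Q50 and of Q92, Sox3 was at 0 in replicate 2 of Q20 and of Q111, and Hes5 was at 0.922 and 1.77 CPM in Q92. Emx1, a marker of the cortex, was at 0 to 0.0967 CPM in NPC.

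The promoters of the members were read from RefSeq on GRCm38.p6, as the 250 bases before each annotated start. The set matched 8 of the 9 names, with 13 starts, and En2 was not matched. The homeodomain core TAATTA, which reads the same on both strands, was in 2 of the 4 Otx2 windows and in none of the other 9, against 4.84% of the 32851 windows of all genes. TAATCC, the preferred letters of OTX proteins, was searched on both strands and was in 1 of the 4 Otx2 windows and none of the other 9, against 6.25% of all windows. A match describes letters in the window and is not shown to be a bound site. The windows of Otx2 and Lhx2 are shown because these genes differed among the NPC genotypes and each has a start with no annotated exon in the 250 bases before it. The Otx2 window lies at chr14:48667645-48667894 on the minus strand and the Lhx2 window at chr2:38339031-38339280 on the plus strand, with capitals marking TAATTA.
Otx2: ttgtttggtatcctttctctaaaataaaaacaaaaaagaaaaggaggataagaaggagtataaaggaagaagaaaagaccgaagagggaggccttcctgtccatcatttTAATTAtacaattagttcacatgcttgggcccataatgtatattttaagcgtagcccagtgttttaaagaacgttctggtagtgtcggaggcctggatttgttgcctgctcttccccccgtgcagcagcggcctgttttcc
Lhx2: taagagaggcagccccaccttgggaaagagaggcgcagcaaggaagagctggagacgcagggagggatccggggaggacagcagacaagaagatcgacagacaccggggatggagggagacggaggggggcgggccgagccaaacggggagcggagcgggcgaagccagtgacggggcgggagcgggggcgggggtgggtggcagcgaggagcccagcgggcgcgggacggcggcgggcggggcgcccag
The Otx2 window had 42% G and C and 6 CpG pairs, and the Lhx2 window 72.8% and 25 pairs.

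In GENCODE M21 on GRCm38, Otx2 (ENSMUSG00000021848) lies at chr14:48657677-48673819 on the minus strand and En2 (ENSMUSG00000039095) at chr5:28165694-28172166 on the plus strand. Lhx2 (ENSMUSG00000000247) lies at chr2:38339281-38369733 and Emx2 (ENSMUSG00000043969) at chr19:59458372-59465357, both on the plus strand. Pax6 (ENSMUSG00000027168) is at chr2:105668900-105697364 and En1 (ENSMUSG00000058665) at chr1:120602418-120607992. Dlx1 (ENSMUSG00000041911, chr2:71528113-71533981) and Dlx2 (ENSMUSG00000023391, chr2:71543408-71546754) are neighbours on opposite strands. Exons on the opposite strand share 154 bases with Otx2 exons (Otx2os1), 335 with Dlx1 exons (Dlx1as) and 264 with Emx2 exons (Emx2os), and Gm49154, an provisional transcript on the same strand, shares 168 bases with Otx2. Those transcripts were not analysed here, and whether the counting used strand is not given. Within the shared bases, reads of these 3 genes and their partners therefore cannot be told apart. All exons together held 4221 bases for Otx2, 5396 for Dlx1 and 3002 for Emx2.

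Otx2 separated the NPC lines most widely: it was expressed in Q20, Q50 and Q111, was low in WT and KO, and had no read in Q92. En2 was lowest in Q20 and highest in Q111. Emx2 was low in Q20, and Lhx2 was low in Q92 and Q111. Pax6 was present in every library with a narrower spread, and Dlx1 and Dlx2 were near the limit of detection. For the comparison among all 6 genotypes, 6 of the 8 members passed the filter of at least 1 CPM in at least 2 NPC libraries, and Dlx1 and Dlx2 did not. Otx2 passed through its 3 high lines alone, so a difference among its groups was built into its passing. This limit also holds for the Otx2 calls below that set a high line against WT or Q92. Of the 6 tested, 4 were called (limma F test across genotypes, adjusted p under 0.05): Otx2 (adjusted p = 3.59e-05), En2 (0.000808), Lhx2 (0.00466) and Emx2 (0.0247). The background was high, since 38% of the 13206 tested genes were called, and the median range over genotype means was 0.97 for all tested genes and 2.04 for the 6 members, as log2(CPM + 1). The Emx2 call was lost without either Q20 library, without Q50 replicate 1, without either Q92 library (limma adjusted p = 0.0519 to 0.0887) or without both Q20 libraries, an alternative chosen after seeing the data (0.132). Pax6 (adjusted p = 0.175 by limma) was called only without WT replicate 2 (0.0163), and En1 (0.155) was not called under any alternative tried.

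**Figure D1:**
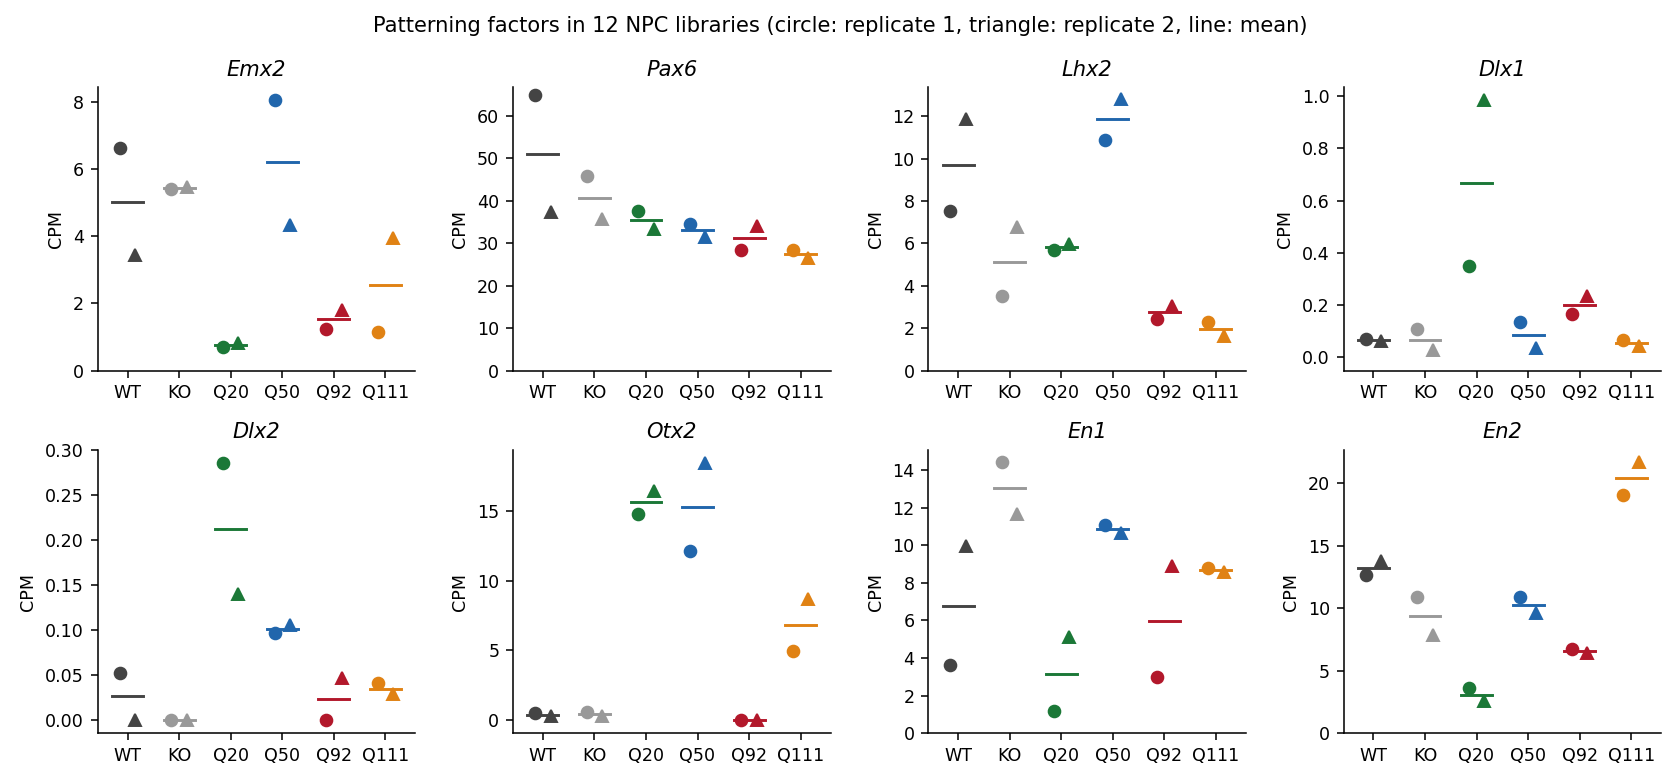
CPM of the 8 members in each of the 12 NPC libraries, by genotype; circles are replicate 1, triangles replicate 2, lines the mean of both, and each panel has its own linear axis. Otx2 lies at 4.95 to 18.5 CPM in Q20, Q50 and Q111 and below 0.6 CPM in the other 6 libraries, while Pax6 lies between 26.5 and 64.9 CPM throughout.

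Among the dorsal forebrain factors, Emx2, which helps set cortical area identity, was at 6.62 and 3.44 CPM in WT and 5.42 and 5.47 in KO. It was at 0.696 and 0.836 CPM in Q20, 8.06 and 4.34 in Q50, 1.25 and 1.798 in Q92, and 1.14 and 3.95 in Q111. Both Q20 libraries lay below all 10 others, and Q111 spanned from the Q92 level to the WT level. In the order of means, Q50, KO, WT, Q111, Q92, Q20, each neighbouring pair overlapped except Q92 and Q20.

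Lhx2, a LIM-homeodomain factor that specifies cortex, was at 7.55 and 11.9 CPM in WT, 3.50 and 6.78 in KO, and 5.69 and 5.97 in Q20. In Q50 it was at 10.9 and 12.8 CPM, in Q92 at 2.46 and 3.03, and in Q111 at 2.31 and 1.66. The Q92 and Q111 libraries were the 4 lowest and did not overlap each other or any other genotype. Q50 and WT overlapped at the top, and Q20 and KO overlapped in the middle.

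Pax6, the paired-box regulator of radial glia and eye, was at 64.9 and 37.4 CPM in WT, 45.8 and 35.8 in KO, and 37.6 and 33.3 in Q20. It was at 34.6 and 31.5 CPM in Q50, 28.3 and 34.0 in Q92, and 28.5 and 26.5 in Q111. Every neighbouring pair in the order of means overlapped, and WT replicate 1 stood above the other 11 libraries.

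The ventral forebrain factors were close to absent. Dlx1, which acts in interneuron progenitors, was at 0.0265 to 0.986 CPM, from 3 to 92 reads, with the 2 highest values in Q20 (0.348 and 0.986). Dlx2, its neighbour and partner, was at 0 to 0.286 CPM, from 0 to 23 reads, and was again highest in Q20 (0.286 and 0.139), with 0 reads in both KO libraries. Q20 did not overlap any other genotype for either gene. Neither was tested, because both fell under the filter (without it, limma called both in Q20 against WT), and of the 15 genes listed for the ventral telencephalon 13 had a row and 3 passed.

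Otx2, the head and midbrain selector, was at 0.455 and 0.245 CPM in WT and 0.591 and 0.300 in KO. It was at 14.8 and 16.5 CPM in Q20, 12.1 and 18.5 in Q50, 4.95 and 8.72 in Q111, and 0 in both Q92 libraries. The 6 libraries of Q20, Q50 and Q111 lay above the other 6, Q20 overlapped Q50, WT overlapped KO, and Q111 lay between. Otx2 thus did not follow repeat length: the shortest and the second shortest repeat had the highest level, the third none, and the longest an intermediate one.

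En1 and En2 encode the engrailed homeodomain proteins of the midbrain and hindbrain boundary. En1 was at 3.63 and 9.97 CPM in WT, 14.4 and 11.7 in KO, and 1.21 and 5.11 in Q20. It was at 11.1 and 10.6 CPM in Q50, 3.01 and 8.91 in Q92, and 8.81 and 8.56 in Q111. KO was above the other genotypes without overlap and Q50 came next, also without overlap. Below them, Q111, WT, Q92 and Q20 each overlapped the next in the order of means.

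En2 was at 12.6 and 13.8 CPM in WT, 10.9 and 7.84 in KO, and 3.63 and 2.56 in Q20. It was at 10.9 and 9.59 CPM in Q50, 6.72 and 6.41 in Q92, and 19.0 and 21.7 in Q111. Its replicates were close, and in the order Q111, WT, Q50, KO, Q92, Q20 the only neighbours that overlapped were Q50 and KO. Both engrailed genes had their lowest mean in Q20, but their highest means were in different genotypes, KO for En1 and Q111 for En2.

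Per kilobase of exon, counted over the union of all annotated transcripts, the median level over the 12 NPC libraries was 3.38 CPM per kb for En1, 2.93 for Pax6 and 2.90 for En2. Lhx2 was at 1.33, Emx2 at 1.23 and Otx2 at 0.657 CPM per kb. Dlx1 (0.0165) and Dlx2 (0.0153 CPM per kb) were far below the rest. On this scale the engrailed genes stood level with Pax6, but the scale depends on the annotation. The Pax6 union held 11694 bases over 26 transcripts, those of En1 and En2 held 2624 and 3539 bases over 1 transcript each. A union longer than the transcript in use lowers the value. In CPM the median was 34.3 for Pax6, 8.86 for En1 and 10.2 for En2.

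Loss of Htt, asked by comparing KO with WT, moved none of the 6 tested members past the threshold, against 1.42% of all tested genes (188 of 13206 by limma, 0.878% higher and 0.545% lower). edgeR on the recovered reads also called 0 members. An unadjusted limma p under 0.05 was reached by 1755 of the 13206 tested genes and by 1 of the 6 members. That member was Lhx2, with a log2 change on the log2(CPM + 1) scale of -0.83 (SE 0.30, adjusted p = 0.271) and groups that did not overlap. Otx2 changed by 0.10 (SE 0.28), Emx2 by 0.15 (SE 0.43), Pax6 by -0.28 (SE 0.26), En2 by -0.47 (SE 0.22) and En1 by 0.97 (SE 0.60). The KO mean was 1.92 times the WT mean for En1 and 1.89 times lower for Lhx2, so the missed threshold does not show that KO and WT were alike. The sign turned for Otx2 without WT replicate 2 (-0.02) or KO replicate 1 (-0.05), for Emx2 without WT replicate 2 (-0.24), and for Pax6 without WT replicate 1 (0.11).

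The Q20 line, whose repeat length is in the normal range, differed from WT in 3 of the 6 tested members, against 14.5% of all tested genes (9.97% higher and 4.57% lower, limma). Otx2 rose from a mean of 0.350 ± 0.149 CPM (SD, n = 2) in WT to 15.7 ± 1.19 CPM (SD, n = 2) in Q20, a ratio of 44.7 and a log2 change of 3.63 (SE 0.28, limma adjusted p = 5.58e-05). En2 fell by 1.81 (SE 0.22, limma adjusted p = 0.000769), a level 4.27 times lower. Emx2 fell by 1.72 (SE 0.43, limma adjusted p = 0.0307), 6.56 times lower. Lhx2 (-0.62), Pax6 (-0.47) and En1 (-0.96) had lower means that did not pass. Both falls missed the threshold when the spread was taken from these 4 libraries alone (limma adjusted p = 0.0553 for En2 and 0.0909 for Emx2), and the Emx2 call was also lost without WT replicate 1 (0.0985) or either Q20 library (0.119 to 0.149) or with a pseudocount of 5 (0.0513). Pax6 was called lower only without WT replicate 2 (limma adjusted p = 0.0288).

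The Q20 NPC libraries also carried genes of other cell types, stem cell genes among them. Pou5f1 was at 90.1 and 87.4 CPM, Sall4 at 47.1 and 54.6 and Nanog at 13.0 and 13.7. The summed level of the pluripotency list, 7 of whose 12 genes had a row, was 155 and 161 CPM in Q20 and 5.86 to 26.9 in the other 10 NPC libraries. Pou5f1, Sall4 and Nanog made up most of the Q20 sums, so these do not speak for the rest of the list. Of its 6 tested genes, 3 were called higher in Q20 than in WT and 0 lower (limma). Between Q92 and Q20, 2 of the 6 were called higher in Q92 and 3 lower, beside 9.88% and 15.9% of all tested genes. Markers of fibroblasts and mesenchyme, 12 of 12 with a row, summed to 329 and 393 CPM in Q20, 1006 and 1019 in Q50 and 73.6 to 163 in the other 8. Of the 13 tested genes of the neuron list, 8 were called higher in Q20 than in WT and 1 lower (limma), beside 9.97% and 4.57% of all tested genes. Stmn2, a gene of growing neurites on that list, was at 103 and 128 CPM against at most 5.51 in the other 10 libraries. In mESC, Stmn2 was at 173 to 391 CPM, so its level in Q20 NPC cannot be assigned to neurons. The neuron list, 14 of 16 with a row, summed to 868 and 1026 CPM in Q20, within the 771 to 1647 of the others. The astrocyte sum (9 of 10 with a row) was 4104 and 3815 CPM in Q20 and 493 to 3049 elsewhere, and that of the oligodendrocyte lineage (10 of 10) was 1059 and 1006 against 85.2 to 561. The neural progenitor sum was lowest in Q20, at 4782 and 4876 CPM against 5941 to 10328. In Q50, the Otx2 range overlapped that of Q20 while Pou5f1 was at 0.0580 and 0.0235 CPM and Sall4 at 0 in both libraries. In Q111, Otx2 was at 4.95 and 8.72 CPM with a pluripotency sum of 11.7 and 12.3 CPM and a mesenchyme sum of 73.6 and 73.7. The part of other cells in the Q20 values was not tested, and in these bulk samples fewer cells of a type and less RNA per cell cannot be told apart.

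**Figure D2:**
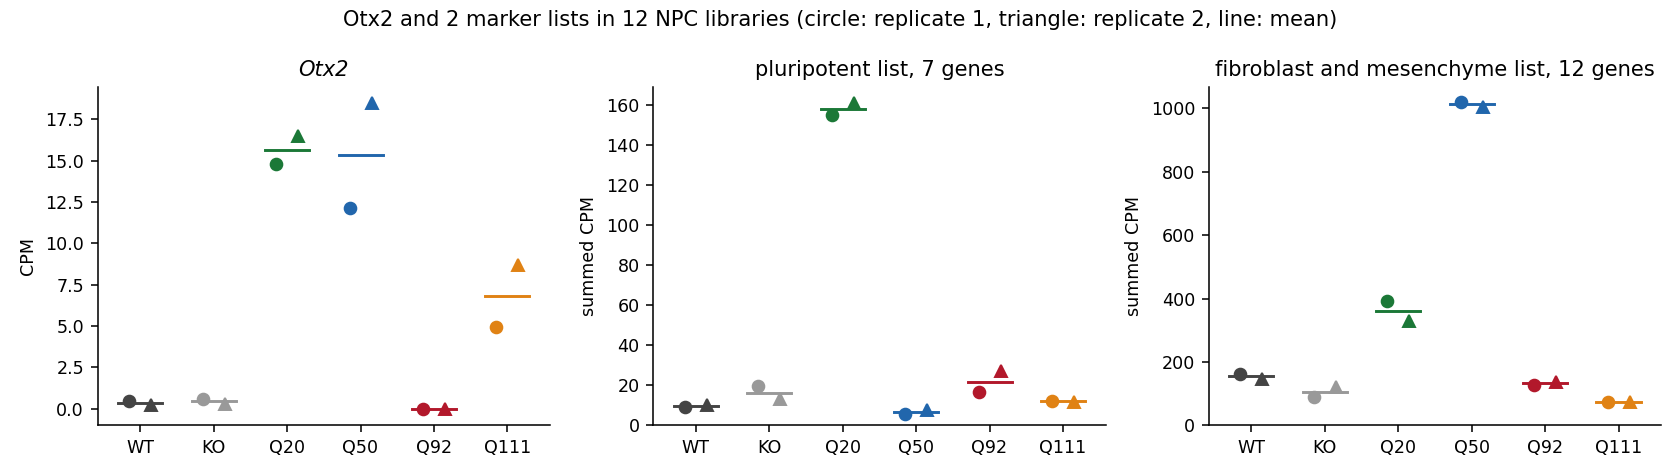
Otx2 in CPM (left) and the summed CPM of the pluripotency list (7 genes, centre) and of the fibroblast and mesenchyme list (12 genes, right) in the 12 NPC libraries; circles are replicate 1, triangles replicate 2, lines the mean. Otx2 was high in Q20, Q50 and Q111, the pluripotency sum in Q20 (155 and 161 CPM), and the mesenchyme sum most in Q50 (1006 and 1019 CPM).

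Longer repeats were compared with Q20, which makes the 3 comparisons share the Q20 libraries, so they are not independent of each other. In Q50, 2 of the 6 tested members were called, both higher, against 18.8% of all tested genes (8.05% higher and 10.7% lower, limma). Emx2 rose by 1.98 (SE 0.43, limma adjusted p = 0.0142) and En2 by 1.47 (SE 0.22, limma adjusted p = 0.00216). The Otx2 difference was -0.06 (SE 0.28, limma adjusted p = 0.92), and its sign turned under quantile normalization (0.01) and without Q20 replicate 2 (0.02) or Q50 replicate 1 (0.23). Lhx2 was higher by 0.91 (limma adjusted p = 0.0734), and it was called with the 4 libraries alone (0.0228), under quantile normalization (0.0345) and with a pseudocount of 5 (0.0438). En1 (1.69, limma adjusted p = 0.088) was called under quantile normalization (0.0473). The Emx2 call was lost without either Q20 library or Q50 replicate 1 (limma adjusted p = 0.0658 to 0.101).

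Q92 differed from Q20 in 2 of the 6 tested members, against 25.8% of all tested genes (9.88% higher and 15.9% lower, limma). Otx2 went from 15.7 CPM to 0 reads in both libraries, at least 650.1-fold lower when Q92 is set at 3 reads over the group (log2 change -4.06, SE 0.28, limma adjusted p = 2.78e-05). En2 rose by 0.90 (SE 0.22, limma adjusted p = 0.0181), a call lost without Q20 replicate 2 (0.120) or either Q92 library (0.0979 and 0.0748). Lhx2 was lower by 0.87 on the same scale (limma adjusted p = 0.0659), and it was called with edgeR (adjusted p = 0.0467) and with the 4 libraries alone (limma, 0.0151). Emx2, Pax6 and En1 did not pass.

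Q111 differed from Q20 in 3 of the 6 tested members, against 28.3% of all tested genes (12.2% higher and 16.1% lower, limma). En2 rose by 2.39 (SE 0.22, limma adjusted p = 0.000145), 6.58 times the Q20 level. Lhx2 fell by 1.20 (SE 0.30, limma adjusted p = 0.0212), 2.94 times lower, and lost its call without any 1 of the 4 libraries (0.0613 to 0.125) and under quantile normalization (0.121). Otx2 fell by 1.13 (SE 0.28, limma adjusted p = 0.0187), 2.29 times lower, and lost its call with edgeR (adjusted p = 0.0921), with a pseudocount of 0.1 (limma, 0.0568) and without Q20 replicate 1, Q20 replicate 2 or Q111 replicate 1 (limma, 0.0708 to 0.117). Emx2 (0.88) and En1 (1.40) had higher means and Pax6 (-0.35) a lower one, none of which passed, though Emx2 was called under quantile normalization (limma adjusted p = 0.0382).

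**Figure D3:**
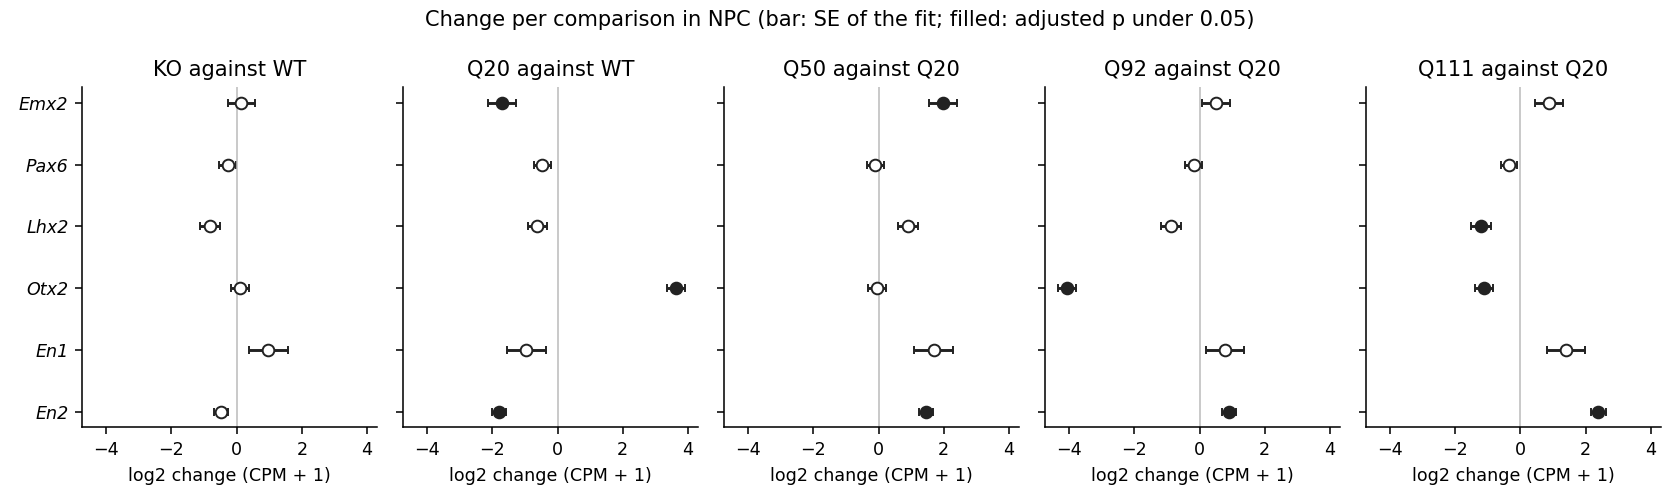
Change of the 6 tested members in the 5 NPC comparisons, on the log2(CPM + 1) scale; bars are the standard error of the limma fit and filled points have an adjusted p under 0.05. The widest changes are those of Otx2, 3.63 in Q20 against WT and -4.06 in Q92 against Q20, and no point is filled in KO against WT.

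With WT in place of Q20 as the reference, several directions turned, and these comparisons share the WT libraries. Otx2 was higher than WT in Q50 by 3.57 (limma adjusted p = 0.000179) and in Q111 by 2.50 (0.000979), and it was lower in Q92 by 0.43 without passing in limma (0.354), although edgeR on the reads called it (adjusted p = 0.00813). The share of all tested genes called against WT was 6.62% in Q50, where 4.54% rose and 2.08% fell, and 1 of 6 members was called. In Q92 it was 8.66%, with 3.42% up and 5.25% down, and 2 of 6 members were called. In Q111 it was 16.6%, split into 8.74% above and 7.9% below WT, again with 2 of 6 members called. Lhx2 was lower than WT in Q92 by 1.49 (limma adjusted p = 0.0228) and in Q111 by 1.82 (0.00718). En2, above Q20 in all of them, was below WT in Q92 by 0.91 (limma adjusted p = 0.0397), and its differences from WT in Q50 (-0.34) and Q111 (0.59) did not pass. Emx2, higher than in Q20 in each, had differences from WT of 0.26 in Q50, -1.21 in Q92 and -0.84 in Q111, none of which passed.

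The slope against CAG length across the 8 libraries of the knock-in lines, given as the change over the 91 repeats from 20 to 111, was called for 1 of the 6 tested members, against 22% of all tested genes (12% higher and 10.1% lower, limma). En2 rose by 1.74 (SE 0.52, limma adjusted p = 0.0463). Its line means were not in the order of length, with 3.10 CPM in Q20, 10.3 in Q50, 6.57 in Q92 and 20.4 in Q111. The call was lost with edgeR (adjusted p = 0.0547), without either Q20 or either Q111 library (limma, 0.124 to 0.167), without the Q20 (0.509) or Q111 line (0.362), and with 1 mean per line (0.387), where no gene of the table was called. Lhx2 had a slope of -1.60 (limma adjusted p = 0.0586), Otx2 of -2.59 (0.152), En1 of 0.86 (0.403), Pax6 of -0.32 (0.178) and Emx2 of 0.25 (0.84). Lhx2 was called without the Q20 line (-3.26, limma adjusted p = 0.0111) or the Q50 line (-1.17, 0.00996). Otx2 was called without the Q111 line (-5.35, limma adjusted p = 0.0208). Repeat length varied only between 4 lines, so it cannot be told apart from the line.

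Other genes of the same regions also differed among the NPC genotypes. Of the tested genes on each list, the F test called 8 of 10 for the dorsal telencephalon, 2 of 3 for the ventral telencephalon, 6 of 8 for hypothalamus and thalamus, 7 of 10 for midbrain and isthmus, 19 of 23 for hindbrain and spinal cord and 11 of 11 for dorsoventral neural tube, beside the 38% of all tested genes. The lists include the members, and genes expressed in 1 line pass the filter through that line, so these counts are a description. The single genes named from the lists were taken for their small p in that F test, and their levels are likewise given with no further test. Genes of the hindbrain and spinal cord formed the longest tested list. Its Hox genes, which set position along the body axis behind the midbrain, included Hoxa9 at 24.9 and 31.7 CPM in KO and 30.6 and 26.9 in Q92, against 1.13 ± 0.167 CPM (SD, n = 2) in WT and means below 0.2 CPM in Q20, Q50 and Q111. Hoxc6 was also high in these lines alone, with means of 6.93 CPM in KO and 4.51 in Q92 and at most 0.347 elsewhere. The lines high in Hoxa9 and Hoxc6 were among those with low or no Otx2. In KO against WT, 6 of the 23 tested genes of this list were called, all higher, beside the 1.42% of all genes, and Hoxa9 and Hoxc6 were among them. Hoxa3 was at 7.02 CPM in WT and 0.0338 in Q111.

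Among further anterior genes, some had their 3 highest means in Q20, Q50 and Q111, the lines with Otx2, and others in 1 line alone. Fezf1, a forebrain factor, was at means of 1.69 CPM in Q20, 0.510 in Q50 and 0.839 in Q111, and at 0.0298 in WT and 0 in KO and Q92. Sp8, a factor of forebrain and isthmus, was at 1.54 CPM in Q20, 12.7 ± 0.963 (SD, n = 2) in Q50 and 1.16 in Q111, against 0.276 in WT, 0.110 in KO and 0.158 in Q92. Eomes, a gene of cortical progenitors, was at 5.06 CPM in Q20, 0.412 in Q50 and 0.655 in Q111, against 0.228 in WT, 0.0309 in KO and 0.0248 in Q92. Six6, an eye and hypothalamus factor, had means of 4.51 CPM in Q20 and at most 0.218 in every other genotype. Lhx5, a forebrain factor, was at 1.74 CPM in Q20, 0.346 in Q50 and at most 0.0274 elsewhere. Fezf2, a gene of cortical neurons, was at 1.34 CPM in Q20, at 0 in Q50 and Q111 and at most 0.115 elsewhere. Six3, an anterior forebrain factor, was at 4.36 CPM in Q50, 0.501 in Q111 and at most 0.0879 elsewhere, Q20 included. Sp9, a ventral forebrain relative of Sp8, had means of 0.289 to 1.67 CPM. Otx1, the paralog of Otx2, was highest in Q111 at 8.21 CPM, was at 2.65 in Q20 and stayed below 0.4 in the other genotypes, Q50 included.

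Among genes of the midbrain and isthmus, Cnpy1, a gene of the isthmus in FGF signalling, was at 33.8 and 32.3 CPM in Q50, at 8.70 and 6.71 in Q111 and at means of 1.06 to 6.01 CPM in the rest. Cnpy1, at chr5:28200819-28245806, lies beside En2. Both had their lowest mean in Q20, but Cnpy1 was highest in Q50 and En2 in Q111. Pax3, a dorsal neural tube factor, was at 15.8 CPM in WT and 9.39 in KO, with 0.0391 in Q92 and 0.160 in Q111. Along the dorsoventral axis, Shh, the floor plate signal, was at 2.40 CPM in Q20 and at most 0.216 elsewhere. Nkx6-1, a ventral progenitor factor, was at 24.6 ± 1.40 CPM (SD, n = 2) in Q92, 3.04 in Q20 and 1.29 in KO. Q92, which had no Otx2 read, was thus the line with the highest Nkx6-1 and a Hoxa9 level like that of KO.

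**Figure D4:**
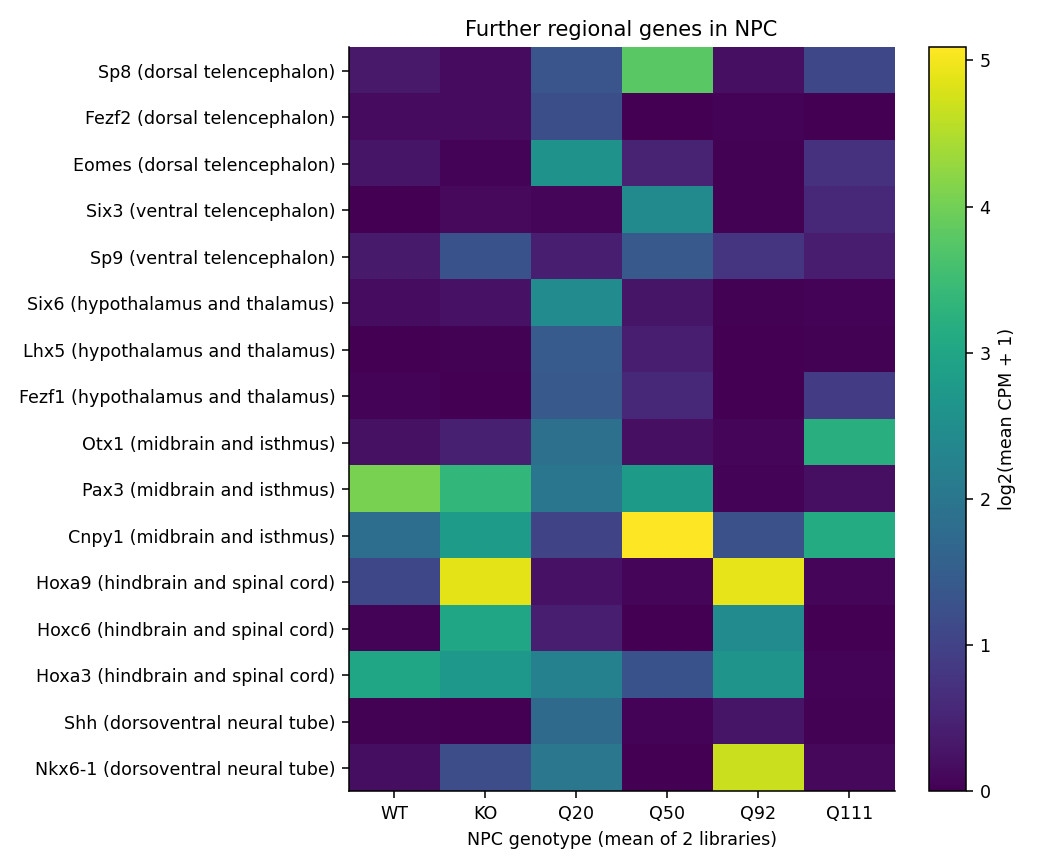
Mean level of 16 further regional genes in the 6 NPC genotypes, as log2(mean CPM + 1) of 2 libraries each, with the list of each gene in parentheses. Q20 has the highest Six6 and Shh, Q50 the highest Sp8 and Cnpy1, KO and Q92 the highest Hoxa9, and Q111 the highest Otx1.

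The tested genes whose log2(CPM + 1) ran most like that of a called member over the 12 NPC libraries were found by Pearson's r. This is a description, since the libraries come in pairs of 6 genotypes and differ in depth. For Otx2 the most alike genes were Ldb2, a cofactor of LIM-domain proteins (r = 0.987), S100a4, a calcium-binding protein (0.977), and Col6a1, a collagen chain (0.972). Col6a1 was at 74.2 and 66.1 CPM in Q20, 47.6 and 40.3 in Q50, 38.7 and 36.0 in Q111, and 1.96 to 4.59 in the other 6 libraries. For En2 they were the kinase Prkd1 (0.950), the collagen chain Col5a2 (0.949) and Gnptab, an enzyme of lysosomal sorting (0.926). Lhx2 ran most like Ltbp1, a binding protein of latent TGF-beta (0.942), the chemokine Cxcl14 (0.936) and the elastic fibre protein Emilin1 (0.933). Emx2 ran most like the endocytic adaptor Dab2 (0.947), the kinase Cdc42bpa (0.919) and the nuclear membrane protein Tor1aip1 (0.908).

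In the undifferentiated mESC no member differed among genotypes past the threshold. Of the 8 members, Otx2, Pax6, En1 and En2 passed the filter, and 0 of these 4 were called, against 0.201% of the 13916 tested genes (28 by limma). edgeR also called 0 members. An unadjusted limma p under 0.05 was reached by 0 of the 4, beside 1379 of the 13916 tested genes. That test did not use the replicate number. With it as a block, 1206 of the 13916 tested genes were called and still 0 of the 4 members, which are too few to be set apart from that share. Emx2, Lhx2, Dlx1 and Dlx2 were at 0 to 0.989 CPM and were not tested. Otx2 was the most abundant member per kilobase in mESC, at a median of 7.01 CPM per kb, with 59.7 and 13.1 CPM in WT, 51.7 and 14.7 in the libraries labelled KO, and 43.0 and 24.7 in Q20. It was at 62.2 and 19.5 CPM in Q50, 31.0 and 13.5 in Q92, and 73.3 and 28.2 in Q111. Replicate 1 was higher in all 6 genotypes, and Q92, without any Otx2 read in NPC, expressed it as stem cells. The tables of both cell types were scaled separately, so levels are not compared between them.

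Pax6 ran the other way in mESC: it was at 5.56 to 13.3 CPM in replicate 1 and 12.6 to 24.7 in replicate 2, higher in replicate 2 in 6 of 6 genotypes. En1 (0.151 to 1.58 CPM) and Emx2 (0 to 0.748 CPM) were also higher in replicate 2 in 6 of 6, and En2 (0.412 to 7.01 CPM) in 5 of 6. The neuron list, 15 of 16 genes with a row, likewise summed higher in replicate 2 in 6 of 6 genotypes, 374 to 638 CPM against 298 to 499, and the neural progenitor list, 13 of 16 with a row, in 5 of 6. The pluripotency list, 12 of 12 with a row, summed to 2317 to 4260 CPM in replicate 1 and 3052 to 4180 in replicate 2. Its sum was also higher in replicate 2 in 4 of 6 genotypes. The part of such cells in the replicate differences was not tested. For Otx2, every replicate 1 value lay above every replicate 2 value, whatever the genotype.

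**Figure D5:**
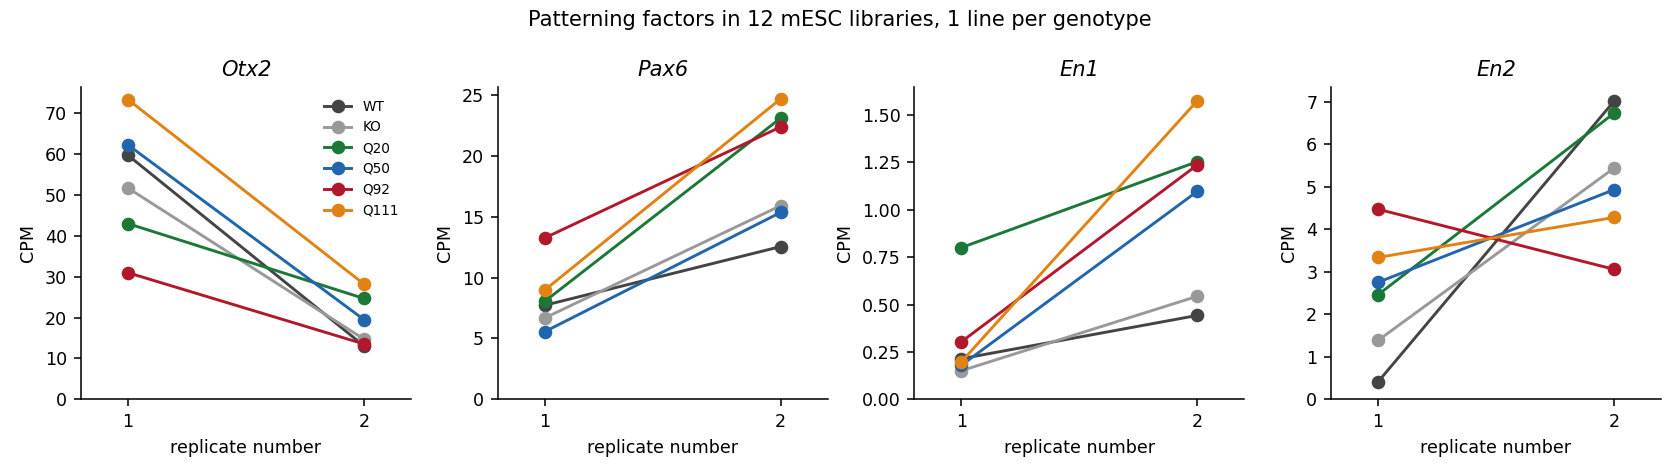
CPM of Otx2, Pax6, En1 and En2 in the 12 mESC libraries, with 1 line per genotype joining replicate 1 and replicate 2. Otx2 is higher in replicate 1 in all 6 genotypes, and Pax6 and En1 are higher in replicate 2 in all 6.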

How the data were processed

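Gene expression was measured by paired-end sequencing of total RNA on a NextSeq 500 in 12 mESC and 12 NPC libraries. The submitters' processing notes name CASAVA 1.8, STAR and GRCm38.p6, without their roles. The values deposited by the authors are a normalised signal in 1 table per cell type, which they named CPM. Column totals ran from 900342 to 1080734, and every value was a whole multiple of what 1 read is worth (100% of values, tolerance 0.1 read). These steps gave back the reads, and TMM factors recomputed from them with edgeR matched the authors' scaling.

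Genes with at least 1 CPM in at least 2 libraries were tested, 13206 in NPC and 13916 in mESC (2818 and 3585 were left out). The comparisons used limma 3.58.1 in R 4.3.3 on log2(CPM + 1) (moderated, variance trend, two-sided, Benjamini-Hochberg over all tested genes, called under an adjusted p of 0.05), with 1 mean per genotype and a common spread over the 12 libraries. Fold changes on this scale understate those of low genes. An F test compared all genotypes, and contrasts compared 5 pairs. edgeR 4.0.16 (quasi-likelihood) on the recovered reads, other pseudocounts (0.1 and 5), filters and scalings, a replicate block and leaving out libraries were alternatives. The fits were tested on simulated data.

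Replicate numbers were checked for pairing by correlating, for the 15 pairs of genotypes, the differences between replicates 1 and 2. In mESC r was 0.25 to 0.547, all over 0.1, so the numbers were taken to pair libraries. Gene positions came from GENCODE M21 and promoters from RefSeq (Python 3.11, pandas). The column names give 89 repeats for the line titled 92; 92 was used. All 9 members were named, with up to 3 genes per region list with the smallest adjusted p in the F test and a mean of at least 1 CPM in some genotype, and the 3 genes most like each called member; 1 gene that this rule selects is not reported here. Members, lists and rules were chosen with earlier results of these data known.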

Additional observations from a re-analysis of the deposited data

Results flagged for a closer look

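The 8 members were each looked at in the 5 pairs of genotypes. In 2 cases both libraries of a genotype lay on one side of its reference in NPC and on the other side in mESC. How often other genes did so was not counted, so these cases are a description. The difference between cell types was not tested. Lhx2 was lower in KO than in WT in NPC, with means of 5.14 against 9.70 CPM (difference -4.57), and higher in the libraries labelled KO in mESC, with 0.753 against 0.297 CPM (difference 0.456). Dlx2 was lower in Q92 than in Q20 in NPC, with 0.0235 against 0.213 CPM (difference -0.189), and higher in mESC, with 0.0829 against 0.0688 CPM (difference 0.014). The Dlx2 levels in mESC and the Q92 level in NPC lie near that of 3 reads.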

How the results depend on the processing

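The calls of Otx2 in Q20 against WT and in Q92 against Q20, and of En2 in Q50 and Q111 against Q20, were lost under no alternative except WT as reference. For Otx2 this is a description, since it passed the filter through its high lines alone. A filter at a mean of 5 CPM gave 3277 calls in the F test over NPC genotypes, 81 in KO against WT, 809 in Q20 against WT, and 1375, 2077 and 2353 in Q50, Q92 and Q111 against Q20, from fewer genes tested. With the libraries of both groups alone the counts were 0, 476, 3927, 6160 and 6712 in the order of those pairs, and with WT as reference 874, 1144 and 2197 for Q50, Q92 and Q111. edgeR called 107 genes in KO against WT. Without both Q20 libraries, an alternative chosen after seeing the data, the F test called 2614 genes. In mESC, 52 were called with no filter. The trend gave 0 genes with 1 mean per line and 1880 without the Q20 line.

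Leaving out 1 library at a time gave 3162 to 7805 genes in the NPC F test, 107 to 1577 in KO against WT, 1014 to 2846 in Q20 against WT, 1258 to 1423 in Q50, 1618 to 1882 in Q92 and 1569 to 1873 in Q111 against Q20, 1213 to 2891 for the trend and 8 to 19 in mESC. Members called were then 3 to 5 in the NPC F test, 2 to 4 in Q20 against WT, 1 to 2 in Q50, Q92 and Q111 against Q20, and 0 to 1 for the trend.

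Members called in Q20 against WT numbered 5 with no filter (Dlx1 and Dlx2 added) and 1 with both groups alone (Otx2). In Q50 against Q20 they numbered 1 at a mean of 5 CPM (En2), a filter that left Emx2 untested. There they numbered 4 under quantile normalization and 1 against WT (Otx2), and in Q111 against Q20 they numbered 5 with no filter. For the trend they numbered 0 with median-of-ratios scaling, edgeR or 1 mean per line, and 2 without the Q50 line (En2 and Lhx2).

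Directions turned against WT for Otx2 in Q50 (3.57) and Q111 (2.50), En2 in Q50 (-0.34) and Q92 (-0.91), Emx2 in Q92 (-1.21) and Q111 (-0.84) and En1 in Q92 (-0.18). The Emx2 slope turned with edgeR (-0.12), without Q20 replicate 1 (-0.27), Q20 replicate 2 (-0.19) or Q111 replicate 2 (-0.05) and without the Q20 line (-1.89), which also turned En1 (-0.69). Otx2 in Q50 against Q20 turned with quantile normalization (0.0063), without Q20 replicate 2 (0.02) and without Q50 replicate 1 (0.23), and in KO against WT without WT replicate 2 (-0.02) or KO replicate 1 (-0.051), with a range of -0.05 to 0.24 over the left-out libraries. In KO against WT, Emx2 ranged from -0.24 (without WT replicate 2) to 0.54 and Pax6 from -0.67 to 0.11 (without WT replicate 1), and the Emx2 slope reached 0.63. The causes were not tested.

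With the replicate number as a block, the mESC count was 1206 genes, with 0 members, and the trend in NPC called 0 members (En2 lost); no other count of calls moved by over 1.5 times. In NPC the pairing check gave r of -0.05 to 0.467, over 0.1 in 3 of 15 pairs. The numbers were therefore not taken to pair the NPC libraries as a whole. The highest r lies within the mESC range, so some NPC genotypes may share a difference between replicates, which was not tested. Depth limits Dlx1 and Dlx2, at 0 to 92 reads per NPC library.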
